A study of Mus musculus with 6 samples.

Results

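Interferon-responding neutrophils are neutrophils that carry transcripts known to be induced by interferons. Here they were taken from single-cell RNA libraries of the non-cardiomyocyte fraction of mouse ventricles. They were chosen cell by cell on their unique molecular identifiers (UMIs, each a counted RNA molecule). A cell needed at least 1000 UMIs, at least 200 detected genes and at most 20% mitochondrial UMIs. It also needed at least 1 UMI of Csf3r, the receptor for granulocyte colony-stimulating factor, and at least 1% of its UMIs from S100a8 and S100a9, the calprotectin subunits that fill the neutrophil cytosol. No UMI was allowed of Fcgr1 or Adgre1 (macrophages), Col1a2 (fibroblasts) or Cdh5 (endothelial cells). Cells that met these criteria are called neutrophils, and those with at least 5 UMIs of Ifit1, Ifit2, Ifit3 and Rsad2 together are the members. Of 30014 cells that passed the filters on UMIs, genes and mitochondrial share, 5729 were neutrophils and 243 of these were members.

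The mice were males of 8-12 weeks, either wild type (strain C57BL/6JRj) or Trpm4 knockout (strain B6.Cg-Trpm4tm1.2-PG). Trpm4 is a calcium-activated cation channel, and its knockout is carried by every cell of those mice as far as the strain name tells. Mice of each genotype were sampled 24 h after a sham operation, or 24 h or 72 h after a ligation that tied off the left anterior descending artery and so caused a myocardial infarction. Each of these 6 groups is 1 library from pooled cells of 4 mice, so no difference has a replicate check, no test was made, and every interval covers counting error only.

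Type I interferons (the interferon alphas and interferon beta) bind a receptor made of Ifnar1 and Ifnar2. The receptor sets off the assembly of a complex that contains Stat2 and Irf9 and binds a short element in the promoters of antiviral genes. The proteins made include Ifit1, Ifit2 and Ifit3, which bind foreign RNA or its partner proteins, and Rsad2 (viperin), an enzyme that makes a chain-terminating nucleotide. In an infarct, neutrophils enter from the blood within hours, and DNA from dying cells is a known trigger of interferon production there.

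The promoters of 5 genes are shown because the interferon element can be read in them. Each line holds the 200 bases before the RefSeq start of the gene (build GRCm38.p6), 5′ to 3′ on the gene's strand. Capitals mark each match on either strand to GAAA, any 2 bases and GAAA again, the core that the interferon-activated complex and the interferon regulatory factors bind. On the opposite strand the same core reads TTTC, 2 bases and TTTC.
Ifit1 (chr19:34640689-34640888, plus strand): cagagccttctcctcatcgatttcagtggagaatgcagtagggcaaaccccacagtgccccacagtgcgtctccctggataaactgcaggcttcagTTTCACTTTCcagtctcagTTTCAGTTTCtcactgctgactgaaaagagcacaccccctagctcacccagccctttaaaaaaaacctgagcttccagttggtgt
Ifit3 (chr19:34583329-34583528, plus strand): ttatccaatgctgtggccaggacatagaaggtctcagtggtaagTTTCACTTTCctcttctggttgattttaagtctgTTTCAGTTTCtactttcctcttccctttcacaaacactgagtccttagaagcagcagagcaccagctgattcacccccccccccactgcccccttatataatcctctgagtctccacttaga
Rsad2 (chr12:26456453-26456652, minus strand): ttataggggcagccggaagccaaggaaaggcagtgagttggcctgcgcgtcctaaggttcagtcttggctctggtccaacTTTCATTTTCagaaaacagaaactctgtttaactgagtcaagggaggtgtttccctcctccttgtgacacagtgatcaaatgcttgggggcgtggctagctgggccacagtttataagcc
Isg15 (chr4:156200819-156201018, minus strand): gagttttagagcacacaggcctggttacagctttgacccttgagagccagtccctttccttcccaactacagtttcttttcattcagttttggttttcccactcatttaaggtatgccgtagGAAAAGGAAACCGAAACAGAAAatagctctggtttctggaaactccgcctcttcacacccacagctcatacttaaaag
Irgm1 (chr11:48871421-48871620, minus strand): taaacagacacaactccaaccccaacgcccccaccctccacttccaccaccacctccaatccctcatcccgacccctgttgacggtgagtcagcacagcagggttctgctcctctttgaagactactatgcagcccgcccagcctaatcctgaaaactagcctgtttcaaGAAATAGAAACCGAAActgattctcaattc

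Ifit1 and Ifit3 each held 2 separate matches on the opposite strand, which began 104 and 85 bases before the start of Ifit1 and 156 and 122 bases before that of Ifit3. Rsad2 held 1 match, 120 bases before the start. Isg15, a ubiquitin-like protein that is joined to other proteins, held 3 overlapping matches between 78 and 66 bases before the start. Irgm1, a GTPase that acts on pathogen-containing vacuoles, held 2 overlapping matches, at 30 and 24 bases. Ifit2, Irf7, Cmpk2, Oasl1 and Ifi47 had no match in the same stretch, and neither had S100a8, S100a9 or Csf3r. In windows from 250 bases before to 50 after the start, the element was held by 1079 of 27025 RefSeq genes (3.99%), counting a gene if any of its windows held it. Among listed genes with such a window, it was found in 15 of 34 antiviral genes (44.1%) and 9 of 9 genes of the list of interferon-induced GTPases. Ifi47, without a match, was placed in the antiviral list. The element was also found in 4 of 15 genes of MHC class I presentation, 3 of 24 genes of interferon signalling, 3 of 9 sensing genes and 2 of 10 secreted and surface genes. Among the lists of other neutrophil genes it was found in 3 of 13 surface and sensing receptors, 1 of 13 granule genes, 1 of 20 inflammatory genes and 0 of 9 trafficking receptors. A match is a description of the letters and was not tested as a site.

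The libraries held between 3625 and 7286 deposited cells and between 20995280 and 45649061 UMIs. The knockout library at 72 h had the most cells and the fewest UMIs. The smallest share of its cells passed the filters, 4518 of 7286, against 4406 of 4678 in wild type at 72 h. Its kept cells had a median of 2182.5 UMIs, against 8559 in wild type at 72 h. The part of this difference in the shares of members below was not tested. Barcodes shared by a pair of libraries numbered 3 to 14, and no shared barcode was a member in both. Trpm4 had 305, 128 and 196 UMIs in the wild-type libraries and 215, 140 and 54 in the knockout libraries, in the order sham, ligation 24 h and ligation 72 h. The 3' tags that are counted may lie outside the deleted part, so these counts check no label. Trpm4 had 0 UMIs in the members of every library.

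Members were present in all 6 libraries, and the wild-type heart at 72 h had the highest share. They were 13 of 610 neutrophils in the wild-type sham library (2.13%, exact 95% interval 1.14 to 3.62) and 11 of 494 in the knockout sham library (2.23%, 1.12 to 3.95). At 24 h after ligation they were 37 of 912 in wild type (4.06%, 2.87 to 5.55) and 100 of 2905 in knockout (3.44%, 2.81 to 4.17). By 72 h they were 72 of 542 in wild type (13.3%, 10.5 to 16.4) and 10 of 266 in knockout (3.76%, 1.82 to 6.80). The wild-type library at 72 h stood clear of the other 5, whose intervals overlapped one another.

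The knockout to wild-type ratio of these shares was 1.04 (0.472 to 2.31) after sham, 0.848 (0.586 to 1.23) at 24 h and 0.283 (0.148 to 0.539) at 72 h. Within wild type the share at 72 h was 3.27 times that at 24 h (2.23 to 4.80), and within knockout the same ratio was 1.09 (0.577 to 2.07). From sham to 24 h the ratio was 1.90 (1.02 to 3.55) in wild type and 1.55 (0.836 to 2.86) in knockout. Among these 7 ratios, those with the wild-type library at 72 h and the wild-type ratio of 24 h to sham had intervals that did not contain 1. The last of these depended on the settings: its interval contained 1 under 5 alternatives, with the lowest ratio, 1.42 (0.680 to 2.97), without cells that held any UMI of further markers of other cell types (the stricter exclusion), and it was 3.85 (1.34 to 11.1) with a minimum of 10 UMIs in place of 5. The ratios between times share the 24 h library of their genotype.

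A fixed minimum of UMIs favours deeper cells, so the share was also expressed at 1 depth. The expected share of neutrophils with at least 2 UMIs of the 4 genes in a draw of 1000 UMIs was 2.48% and 2.60% in the sham libraries (wild type, then knockout), 3.79% and 3.59% at 24 h, and 15.7% and 5.15% at 72 h. The wild-type library at 72 h was again the highest, and the knockout library at 72 h lay above both libraries at 24 h, which it did not by the rule. The 4 genes together had a level of 1017 CPM (UMIs of a gene per 1000000 UMIs) over all neutrophils of the wild-type library at 72 h and 307 in those of the knockout library, a ratio of 0.302 (0.255 to 0.354). In the other 4 libraries this level was between 145 and 243 CPM. Within knockout its ratio was 1.62 (1.39 to 1.90) from sham to 24 h and 1.30 (1.11 to 1.53) from 24 h to 72 h. The knockout to wild-type ratio was 0.807 (0.665 to 0.978) after sham and 0.969 (0.893 to 1.05) at 24 h. Only the last of these intervals contained 1, whereas those of the same share ratios all did. These intervals count UMIs as independent, although the members held most of them.

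Neutrophils themselves made up different shares of the kept cells: 11.4% and 8.48% after sham, 28.5% and 43.1% at 24 h, and 12.3% and 5.89% at 72 h, wild type first. Over all kept cells, the members were 0.244% and 0.189% after sham, 1.16% and 1.49% at 24 h, and 1.63% and 0.221% at 72 h. The knockout library at 24 h held the most members by number, and the wild-type library at 72 h held the most per neutrophil and per kept cell.

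**Figure D1:**
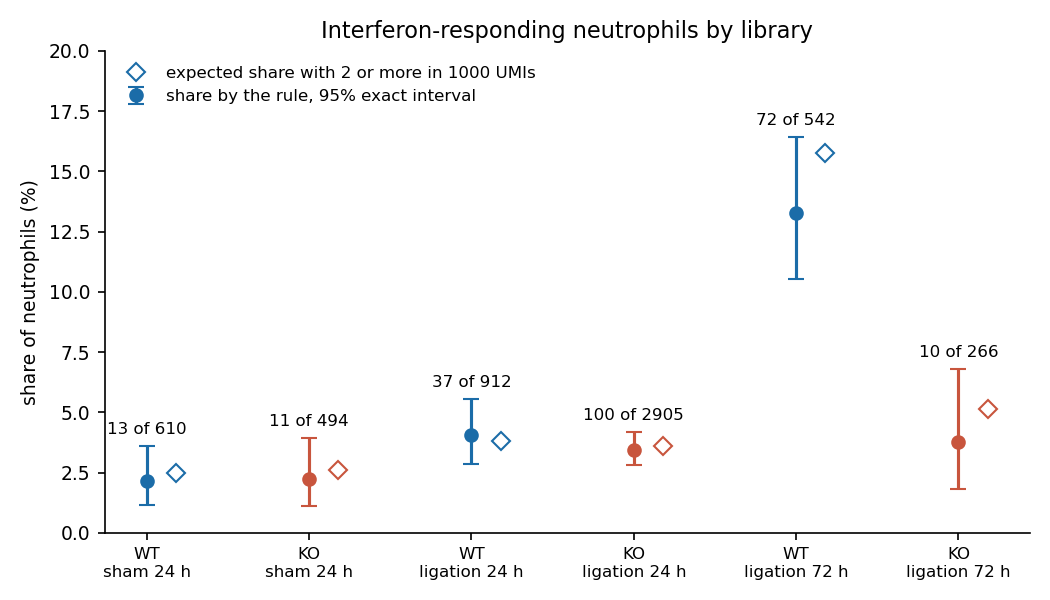
Share of neutrophils that met the interferon criterion (y axis, %), by library (x axis). Filled circles are the shares by the rule with exact 95% intervals and the counts above them, and diamonds are the expected shares with at least 2 of the 4 genes' UMIs in a draw of 1000. The wild-type library at 72 h has the highest share, 72 of 542 neutrophils, and the next highest by the rule is 37 of 912 in wild type at 24 h.

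The 4 interferon genes were spread very unevenly over neutrophils, and the rule's minimum lies on the slope of 1 long tail. Of all neutrophils, 4963 (86.6%) had 0 of these UMIs, 523 had 1 to 4, and the members had a median of 11 and up to 90. Just inside the minimum were 30 members with 5 UMIs and 27 with 6. Just outside it were 37 neutrophils with 4 and 57 with 3. No gap separated the members from the rest in these counts, and the class is used here as a range of levels. At 72 h, 70.5% of wild-type and 85.7% of knockout neutrophils had 0 of these UMIs. The sham and 24 h libraries had 86.0% to 90.2% of neutrophils at 0. The wild-type curve at 72 h lies above the others over most of the range.

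Members held most of the interferon-gene UMIs of the neutrophils. They held 72.6% and 67.1% of the UMIs of the 4 genes in the sham libraries, 81.8% and 81.0% at 24 h, and 87.0% and 71.6% at 72 h. The other neutrophils had 50.6 and 49.1 CPM of the 4 genes after sham and 46.7 and 46.5 at 24 h. At 72 h they had 153 CPM in wild type and 90.6 in knockout, so neutrophils outside the class also had more of these UMIs at that time.

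**Figure D2:**
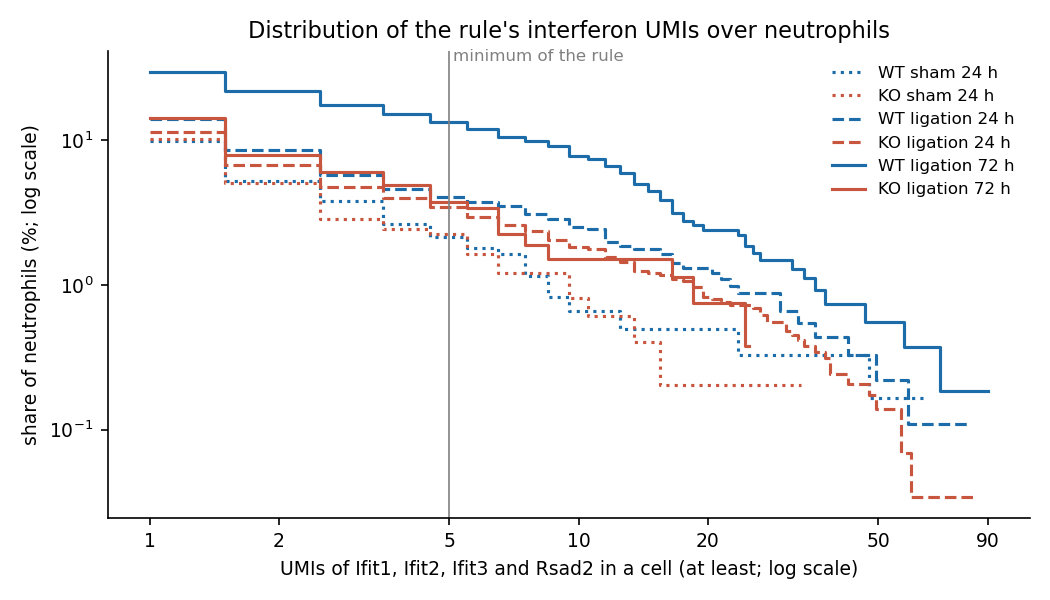
Share of neutrophils (y axis, %, log scale) with at least the number of Ifit1, Ifit2, Ifit3 and Rsad2 UMIs on the x axis (log scale), 1 line per library. The vertical line is the rule's minimum of 5. The solid line of the wild-type library at 72 h starts highest, with 70.5% of its neutrophils at 0 and so not drawn.

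The mixture of the 4 genes, which the rule sums and does not fix, differed between libraries. Rsad2 gave 45.5% and 61.2% of the members' UMIs of the 4 genes after sham (wild type, then knockout), 56.8% and 52.0% at 24 h, and 23.9% (21.4 to 26.5) and 44.6% at 72 h. Ifit3 gave 12.0% and 8.62% after sham, 13.9% and 17.5% at 24 h, and 42.8% (39.8 to 45.7) and 27.3% at 72 h. Ifit1 ranged from 20.7% to 35.4% and Ifit2 from 4.10% to 10.8%. The wild-type members at 72 h thus had Ifit3 as the leading gene, and those of the other 5 libraries had Rsad2.

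By level, Ifit3 had 649 and 331 CPM in sham members, 508 and 835 at 24 h, and 2805 and 1553 at 72 h. Rsad2 had 2466 and 2349 CPM after sham, 2074 and 2489 at 24 h, and 1569 and 2542 at 72 h. Ifit3 was highest at 72 h in both genotypes, while Rsad2 was lowest in wild type at 72 h. Outside the class, Rsad2 gave 65.8% and 80.7% of the 4 genes' UMIs in the other neutrophils after sham, 69.1% and 65.5% at 24 h, and 34.5% and 56.3% at 72 h. The lower share of Rsad2 in the wild-type library at 72 h was therefore present on both sides of the minimum. Ifit3b and Ifit1bl1 are near copies of Ifit3 and Ifit1 that the counting could confuse with them, and were left out.

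**Figure D3:**
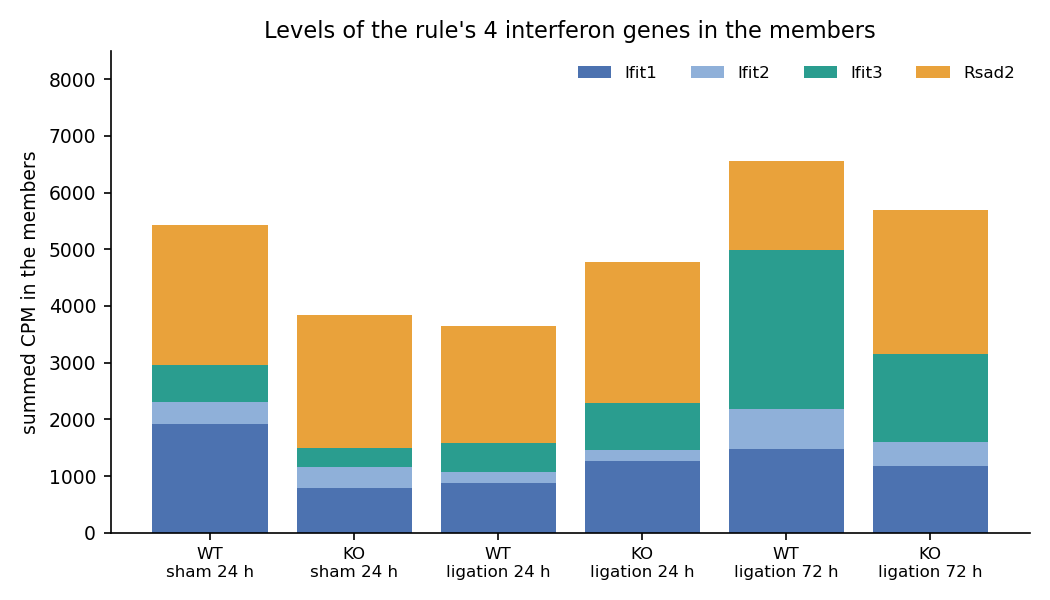
Summed level of the rule's 4 interferon genes in the members (y axis, CPM), by library (x axis), stacked by gene. The green segment, Ifit3, is tallest in the wild-type library at 72 h, at 2805 CPM, and the orange segment, Rsad2, leads in the other 5.

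All 4 genes were present together in 65 members, 3 of them in 71, 2 in 75 and a single gene in 32. In each of those 32 the single gene was Rsad2. At 72 h, 34 of 72 wild-type members had all 4 genes (47.2%, 35.3 to 59.3), against 8 of 37 wild-type members (21.6%, 9.83 to 38.2) and 17 of 100 knockout members (17.0%, 10.2 to 25.8) at 24 h. In the 3 libraries with at least 30 members, those with Rsad2 alone had a lower level of Isg15 than members with an Ifit gene, and a higher level than neutrophils with none of the 4. These Isg15 levels were 807, 4274 and 152 CPM in wild type at 24 h (7, 30 and 784 cells). In knockout at 24 h they were 1758, 3689 and 132 CPM (14, 86 and 2575 cells), and in wild type at 72 h 744, 5503 and 242 CPM (6, 66 and 382 cells). In the wild-type sham library Isg15 did not follow that order, with 2245, 2230 and 160 CPM (2, 11 and 550 cells). The split was made on the rule's own genes. In wild type at 24 h the 7 members with Rsad2 alone held 44604 total UMIs and the 30 with an Ifit gene 142498. The part of depth, or of the number of rule UMIs, in these levels was not tested.

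The label was checked against marker genes that the rule did not use. All 12 further neutrophil markers, among them Cxcr2, Retnlg, Mmp9 and Ly6g, were detected in the members of 5 libraries, and 11 of 12 in the 10 knockout members at 72 h. Their summed level was 17133 to 31858 CPM in members and 14442 to 24181 CPM in other neutrophils. Macrophage markers summed to 208 to 353 CPM in the members of 5 libraries (326 to 909 in their other neutrophils). In the knockout library at 72 h they summed to 1083 CPM in members and 1822 in others. There, C1qa, a complement gene of macrophages, was found in 4 of 10 members (40%, 12.2 to 73.8) and in 11.7% of other neutrophils, at a median of 1913 and 2027.5 total UMIs. C1qa was at 0 in the members of both sham libraries and of wild type at 72 h.

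Monocyte markers were higher in members than in other neutrophils in all 6 libraries, by the least at 24 h (2539 against 2297 CPM in wild type, 5179 against 5003 in knockout). Of those markers, Plac8 is also interferon-induced. It had 326 against 46.1 CPM in wild type at 24 h, 644 against 55.0 in knockout at 24 h, and 1691 against 243 in wild type at 72 h. In the last of these the summed monocyte markers had 1866 against 618 CPM. The gap in Plac8 was larger than the gap in the sum in each of these libraries. The other monocyte markers together were thus lower in members there. Lymphoid and dendritic cell markers were higher in knockout members at 24 h (157 against 49.8 CPM and 698 against 334 CPM). The dendritic markers include Bst2, also an antiviral gene of the lists, with 148 against 19.4 CPM there. Of the 235 dendritic UMIs of these members, 1 member held 88 of Cd74, 17 of H2-Ab1 and 12 of H2-Aa. Fibroblast markers were higher in wild-type members at 24 h (673 against 457 CPM) and endothelial markers in wild-type sham members (571 against 237 CPM). Their part in the results was not tested. Of the 243 members, 79 held at least 1 UMI of C1qa, C1qb, C1qc, Csf1r, Cd3e, Cd79a, Pecam1 or Dcn. Without all neutrophils that held such a UMI, the share ratio of knockout to wild type at 72 h was 0.271 (0.111 to 0.664). It rested on 5 of 137 knockout and 55 of 409 wild-type neutrophils. Removing the cells with the highest doublet scores took out 3 members, all from the knockout library at 24 h.

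Members had about the depth of the other neutrophils of their library, except in wild type at 24 h, where they were deeper. Their median total was 2554 against 2323 UMIs and 2166 against 2193 in the sham libraries (wild type, then knockout). It was 4872 against 3203 and 2760 against 2560 at 24 h, and 2207 against 2179.5 and 1913 against 2027.5 at 72 h. The S100a8 and S100a9 share had a median of 9.06% and 10.1% in sham members, 8.26% and 10.4% at 24 h, and 5.80% and 4.74% at 72 h. In the other neutrophils it was 9.10%, 8.00%, 10.8%, 12.9%, 5.86% and 4.92% in the same order. Both sets of cells had the lower calprotectin share at 72 h.

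Expression outside the rule's genes was set against the other neutrophils of the same library, for the 3 libraries with at least 30 members. UMIs were summed over cells and scaled to CPM, and a gene was measured with at least 20 UMIs over the pair. Because the rule chose cells by interferon genes, these ratios describe the class and support nothing. Members carried most of the known interferon program besides the 4 genes. At least 2-fold higher were 7.21% of 6003 measured genes in wild type at 24 h, 7.59% of 7643 in knockout at 24 h and 4.74% of 5549 in wild type at 72 h. At least 2-fold lower were 11.5%, 8.87% and 18.1%. The median log2 ratio of all measured genes was −0.08, −0.05 and −0.26.

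Of the antiviral genes, 29 of 36 were at least 2-fold higher in wild-type members at 24 h, 33 of 39 in knockout at 24 h and 31 of 37 in wild type at 72 h, with 0 lower by that fold in each. Their median log2 ratio was 2.45, 2.93 and 2.36. Isg15 had 2232 and 2117 CPM in sham members (wild type, then knockout), 3447 and 3484 at 24 h, and 5167 and 4425 at 72 h. In the other neutrophils Isg15 had 217, 153, 249, 211, 499 and 249 CPM in the same order. The lowest member level of Isg15 was thus above the highest level outside the class. Its UMIs were in 35 of 37, 96 of 100 and 68 of 72 members of the 3 libraries.

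Cmpk2, a mitochondrial nucleotide kinase that lies beside Rsad2, had log2 ratios of 5.38 (4.65 to 6.15), 5.33 (4.92 to 5.75) and 3.71 (2.98 to 4.48). Usp18, which removes Isg15 from proteins and damps the interferon receptor, had 4.35, 4.91 and 3.10. Oasl1, a member of the oligoadenylate synthetase family, had 4.22, 4.64 and 3.91. Herc6, the mouse ligase that attaches Isg15, had 4.72, 4.79 and 3.88. In these 4 genes the ratio was lowest at 72 h, when the other neutrophils also had more of them: Usp18 had 35.5 CPM there at 72 h and 10.8 at 24 h in wild type. Zbp1, a sensor of Z-form nucleic acid, was the opposite, with 2.98 and 3.21 at 24 h and 4.15 (3.66 to 4.66) at 72 h.

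The interferon-induced transmembrane genes, which hinder the entry of viruses, did not go together. Ifitm3 had log2 ratios of 2.08, 2.06 and 2.31. Ifitm1 had −0.24 (−0.36 to −0.12), −0.03 (−0.11 to 0.06) and 0.50 (0.35 to 0.65), and Ifitm2 had −0.11, −0.08 and 0.37. Both were abundant in all neutrophils: Ifitm1 had 3625 and 3462 CPM in the other neutrophils at 24 h and 1839 in wild type at 72 h.

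In the signalling pathway the receptors differed little, and the factors downstream of it were higher. Ifnar1 had log2 ratios of 0.27, 0.13 and −0.45, Ifnar2 −0.14, −0.04 and 0.00, and the interferon gamma receptor chain Ifngr1 −0.24, −0.68 and −0.30. Stat2 had 3.01, 3.02 and 4.11, and Irf9 had 1.81, 1.82 and 1.14. Irf7, the factor that amplifies interferon production, had 623 and 364 CPM in sham members, 406 and 538 at 24 h, and 1353 and 1318 at 72 h. Outside the class Irf7 had between 48.1 and 81.2 CPM in 5 libraries and 197 in wild type at 72 h. Of all signalling genes, 10 of 24, 12 of 25 and 9 of 23 were at least 2-fold higher, with 0, 0 and 1 lower.

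Among sensors of foreign nucleic acid, Ddx58 (RIG-I) had log2 ratios of 2.44, 2.58 and 2.39, and Ifih1 (MDA5) had 3.38, 3.11 and 2.53. Of the sensing genes 3 of 8, 4 of 8 and 3 of 6 were at least 2-fold higher. All measured GTPases of the interferon-induced families were at least 2-fold higher: 6 of 6, 7 of 7 and 7 of 7, with medians of 2.83, 3.73 and 2.80. Gbp2 had 2.74, 4.41 and 3.73, and Irgm1 had 3.72, 3.73 and 3.04. Gbp5 had 4.82, 6.31 and 4.93, from 13, 46 and 19 UMIs in the members. These GTPases are induced by interferon gamma as well as by type I interferons, and the data do not tell the ligands apart.

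Genes of MHC class I presentation, which load peptides for T cells, were at least 2-fold higher in 12 of 16, 12 of 17 and 8 of 14, with medians of 1.16, 1.38 and 1.05. The transporter Tap1 had 2.26, 2.34 and 2.35, while the abundant B2m had 1.12, 1.05 and 1.07 and H2-D1 had 0.49, 0.51 and 0.97. Of secreted and surface genes, 6 of 12, 6 of 12 and 5 of 10 were at least 2-fold higher. Cxcl10, a chemokine for T cells, had 299 CPM in wild-type members at 24 h, 1007 in knockout at 24 h and 280 in wild type at 72 h, against 16.0, 9.99 and 29.1 in others. Cxcl10 came from few cells: 9 of 37, 20 of 100 and 3 of 72 members, and 41 of the 48 UMIs at 72 h lay in 1 member. Cd274 (PD-L1) had log2 ratios of 1.17, 2.37 and 1.18.

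**Figure D4:**
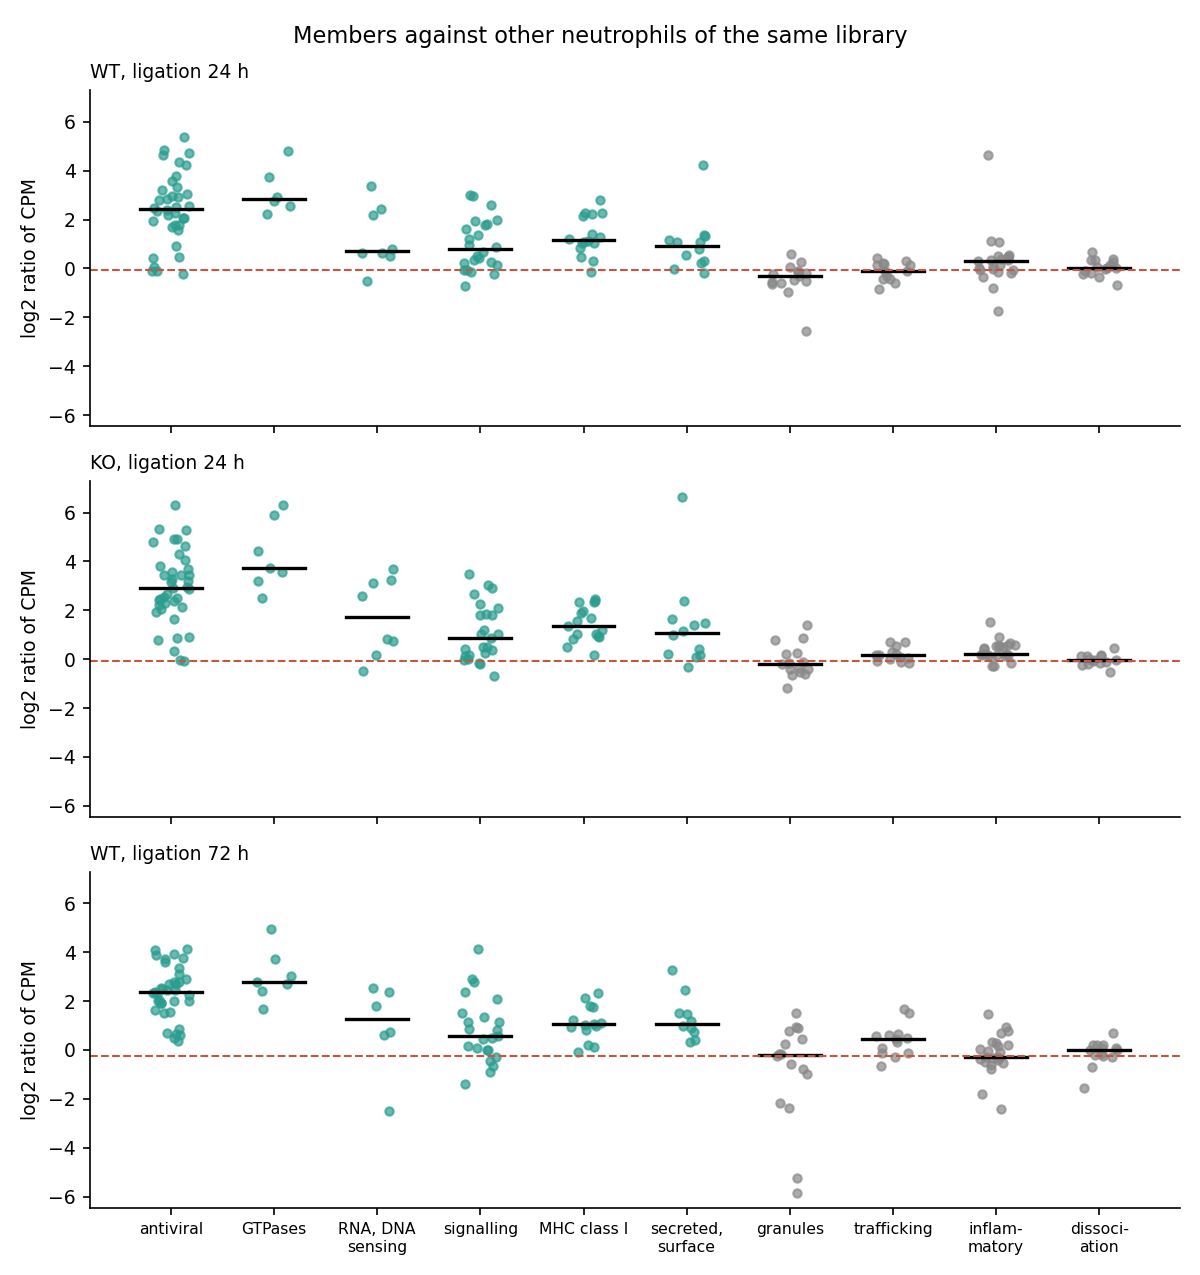
Log2 ratio of CPM in members to that in other neutrophils of the same library (y axis), 1 point per measured gene, by gene list (x axis), for the 3 libraries with at least 30 members. Black bars are list medians and the dashed line is the median of all measured genes. Interferon lists are green, with antiviral medians of 2.45, 2.93 and 2.36. Other neutrophil lists are grey, with medians nearer the dashed line than the antiviral ones. Of the grey lists, trafficking at 72 h lies furthest from that line, at 0.46 against −0.26.

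The neutrophil's own equipment differed less between members and others than the antiviral genes did. Of granule genes 0 of 15, 1 of 15 and 1 of 16 were at least 2-fold higher and 1, 1 and 4 lower, with medians of −0.31, −0.20 and −0.20. Retnlg had −0.23, −0.60 and 0.43. Camp and Ngp, genes of immature neutrophils, had 995 and 651 CPM in other wild-type neutrophils at 72 h and 0 UMIs in members, but the 1095 Camp UMIs lay in 2 cells and the 716 of Ngp in 3. Of 13 trafficking receptors, 0, 0 and 2 were at least 2-fold higher. Among the latter was the formyl peptide receptor Fpr1, with 1.68 at 72 h. Trafficking receptors had medians of −0.09, 0.16 and 0.46, and surface and sensing receptors 0.22, 0.11 and 0.33. At 72 h both medians lay above the −0.26 of all measured genes.

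Inflammatory genes were nearly level, with medians of 0.29, 0.22 and −0.30 and 3, 1 and 1 of 23 at least 2-fold higher. The cytokine Il1b had −0.15, 0.17 and 0.30, and the chemokine Cxcl2 had 0.11, 0.07 and −0.40. Acod1, which makes itaconate, had 1.12, 1.52 and 0.69. Cxcl1 reached 4.63 in wild type at 24 h, from 27 UMIs that all lay in 1 member. Casp4, the sensor caspase of intracellular lipopolysaccharide, had 1.30, 1.44 and 1.87. Siglecf, a lectin of aged tissue neutrophils, had −0.90 (−3.20 to 0.69), −1.04 (−2.50 to 0.10) and −0.64 (−1.26 to −0.08). Genes known to respond to tissue dissociation had medians of 0.04, −0.03 and 0.00, and 0 of 15, 0 of 14 and 0 of 14 were at least 2-fold higher.

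Across the 3 libraries, 1056 genes were well enough covered in each, and 59 of them were at least 2-fold higher in all 3 while 0 were lower in all 3. Of the 59, 40 were in the interferon lists, and the share of these lists among the 1056 is not given here. The members were chosen by interferon genes, and the lists with earlier results of these data known, so this overlap supports nothing. The others of the 59 included Plac8 (2.82, 3.55 and 2.80) and genes of innate defence such as Rnf213, Epsti1, Samd9l, Trafd1 and Lgals9. In RefSeq promoter windows, 20 of the 50 matched genes (40%) held the element shown for Ifit1 and Isg15. In knockout at 24 h, the lowest genes named by rule were the matrix protein Ecm1 (−1.56, −2.52 to −0.75), the nucleotidase Nt5c2 (−1.30) and the autophagy receptor Sqstm1 (−1.11).

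The summed antiviral level was higher at each step of the rule's UMIs. In wild type at 24 h the summed antiviral genes had 9826 CPM in neutrophils with 0 UMIs of the 4 rule genes, 15084 with 1 to 4, 20879 with 5 to 11 and 32228 with 12 or more. In knockout at 24 h the levels were 9623, 15955, 26533 and 32612 CPM, and in wild type at 72 h 9657, 26652, 46184 and 55793 CPM. The summed level at 0 was alike in the 3 libraries, and that of cells with 1 to 4 UMIs, just outside the class, lay between it and the members'. A sum follows its abundant genes, so alike sums do not show alike levels of each gene. In other wild-type neutrophils Ifi27l2a had 302 CPM at 24 h and 2562 at 72 h, whereas Ifitm1 was lower at 72 h. Of the antiviral genes there, 12 of 37 were at least 2-fold higher at 72 h and 1 lower, beside 31.4% and 7.53% of all measured genes. Each level is a sum over cells, so a mixture of cells at both extremes and cells of intermediate level cannot be told apart. The median total UMIs of these steps were 3200, 3351, 5196 and 4350.5 in wild type at 24 h, and 2177, 2194, 2157 and 2387.5 in wild type at 72 h.

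Members of the knockout and wild type could be compared in expression only at 24 h (100 and 37 members). Interferon genes were close in level. Of antiviral genes 4 of 37 were at least 2-fold higher in knockout and 0 lower, beside 8.19% and 5.51% of 2686 measured genes, with a median log2 ratio of 0.15 (all genes 0.02). In the other neutrophils of the 2 libraries the antiviral median was −0.08, beside 4.23% of 8856 genes at least 2-fold higher and 2.47% lower. Isg15 had a ratio of 0.02 (−0.12 to 0.16), Ifit3 0.72 (0.38 to 1.07) and Ifi27l2a, a mitochondrial protein gene, 1.26 (1.02 to 1.50). Cxcl10 had 1.75 (1.34 to 2.18), from 339 against 56 UMIs. Under the stricter exclusion (65 and 22 members), Cxcl10 had 0.99 (0.53 to 1.47) and Isg15 −0.29 (−0.46 to −0.12).

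The genes furthest apart rested partly on single cells. Ccl2, a monocyte chemokine, had a log2 ratio of 4.50, but 228 of its 245 knockout UMIs lay in 1 member that also held 56 of 70 UMIs of Fn1 (3.70). Another member held 88 of 150 UMIs of Cd74 (2.29) and 28 of 50 of Apoe (1.99), with 17 UMIs of H2-Ab1 and 12 of H2-Aa, genes of antigen-presenting cells. These 2 members had 10603 and 13303 total UMIs. Without them Ccl2 had 0.76 (−0.65 to 2.39), Fn1 1.48, Cd74 0.69 and Apoe 0.91. Mmp8, a granule collagenase, stayed at 1.91 (1.85 with them), and was 1.28 in the other neutrophils. Mmp8 had 386 CPM in knockout and 107 in wild-type members.

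On the lower side were Fam162a (−2.35, −3.10 to −1.64), Ero1l (−2.05, −2.57 to −1.56) and Higd1a (−1.75, −2.42 to −1.11), genes known to respond to low oxygen, together with Cstdc4 (−1.84) and Tes (−1.75). In the other neutrophils the same ratios were −0.47, −0.65, −0.49, −0.11 and −0.94. Fam162a UMIs were found in 13 of 100 knockout and 15 of 37 wild-type members, at a median total of 2760 and 4872 UMIs. Ero1l was found in 20 and 21 members. Under the stricter exclusion Higd1a had −2.75 (−3.77 to −1.84). The part of the deeper wild-type members in these ratios was not tested.

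The members of the wild-type libraries at 24 h and 72 h (37 and 72 cells) were set beside the other neutrophils of the same libraries. At least 2-fold higher at 72 h were 20.6% of 2204 measured genes and at least 2-fold lower were 14.4%. In the other neutrophils these were 31.4% and 7.53% of 7517. Ifi27l2a had 2128 and 1356 CPM in sham members, 978 and 2337 at 24 h, and 14918 and 3107 at 72 h. Its ratio from 24 h to 72 h in wild type was 3.93 (3.71 to 4.16) in members and 3.08 in others, and its 2558 UMIs at 72 h were spread over 63 members with 180 in the highest. No other library came near that level of Ifi27l2a.

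The next highest ratios were Gm5150 (3.80, 1.64 in others), Gngt2, a G protein subunit (3.49, 3.05 in others), Tmem14c (2.77, 2.31 in others) and Ndufa13 (2.69, 2.22 in others). Lowest were Cd177, a surface protein of circulating neutrophils (−6.32, from 1 against 87 UMIs, and −4.11 in others), Chil3, a chitinase-like protein (−5.69, −3.11 in others), and the chemokine Cxcl3 (−4.89, −3.92 in others). Ero1l had −4.37 (−1.86 in others) and the inhibitory Fc receptor Fcgr2b −4.02 (−3.63 in others). These genes were named for their ratios in the members.

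Of antiviral genes 8 of 34 were at least 2-fold higher in members at 72 h and 0 lower, a share of higher genes near the 20.6% of all measured genes, with a median of 0.16 against 0.13 for all genes, and in other neutrophils the median was 0.65 against 0.52. The members' median was −0.16 when membership was set by at least 2 of the rule's UMIs per 1000 in place of 5. Rtp4 had 1.95 (1.57 to 2.35), Slfn5 1.48, Irf7 1.74 and Ifitm3 1.01, while Isg15 had 0.58 and Cmpk2 −0.04 (−0.63 to 0.54). MHC class I genes had a median of 0.75, with 5 of 14 at least 2-fold higher (0.85 in others).

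Inflammatory genes were lower in members at 72 h, with 13 of 22 at least 2-fold lower and 1 higher, beside 14.4% and 20.6% of all measured genes. Their median was −1.14, against 0.13 for all genes. In the other neutrophils 6 of 23 were at least 2-fold lower and 1 higher, with a median of −0.66 against 0.52 for all genes. In members Cxcl2 had −1.84 and Il1b 0.43, and the 1 gene at least 2-fold higher was Tnf, at 1.67 (0.64 to 2.80, from 32 against 11 UMIs). Genes of cell death and survival had a median of −1.03 in members, with 6 of 11 at least 2-fold lower and 2 higher. In other neutrophils, where more of them were measured, the median was 0.07, with 3 of 16 lower by that fold and 3 higher. Those lower in members included the survival gene Bcl2a1d (−1.87) and Casp8 (−1.87), and those higher were Bax (1.71) and Pmaip1 (2.08), which promote apoptosis. These ratios are given for the members only, and whether they were particular to members was not tested.

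**Figure D5:**
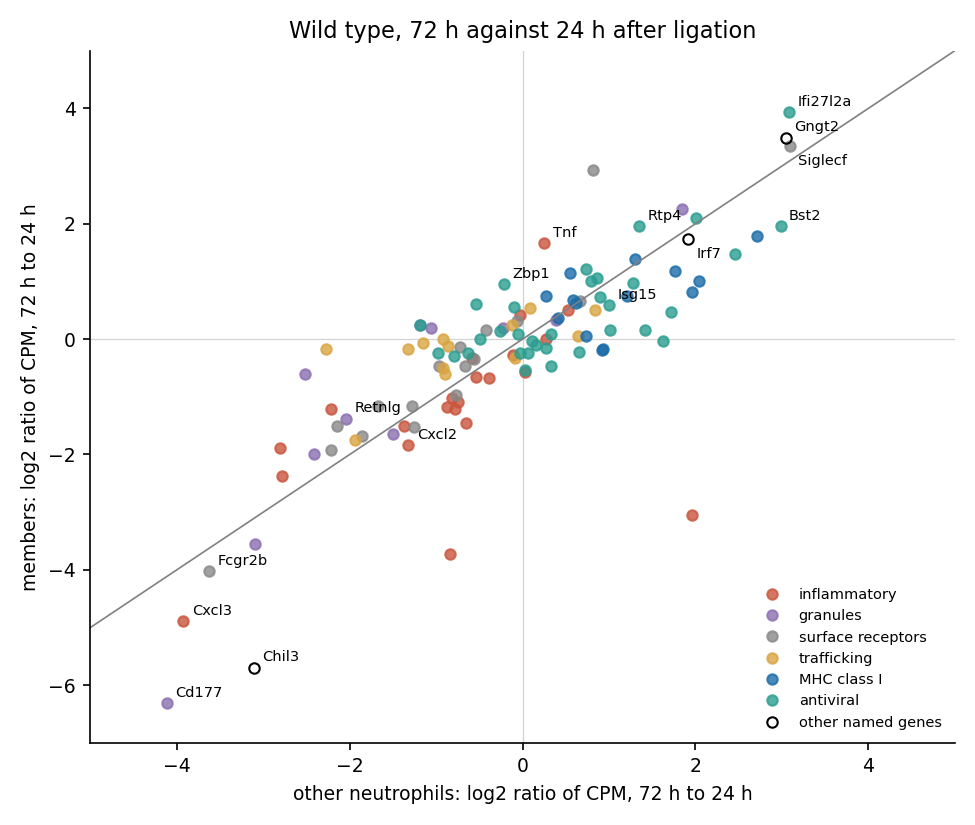
Log2 ratio of CPM at 72 h to that at 24 h after ligation in wild-type hearts, in other neutrophils (x axis) and in members (y axis), 1 point per measured gene of 6 lists, coloured by list. Open circles are other named genes and the diagonal marks equal ratios. Ifi27l2a, at 3.08 and 3.93, lies at the upper right, and Cd177, at −4.11 and −6.32, at the lower left.

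The knockout library at 72 h had 10 members, too few for ratios. Their Isg15 level was 4425 CPM (3576 to 5415) and that of Irf7 was 1318. Ifi27l2a had 3107 CPM against 14918 in wild type at 72 h. The 13 wild-type and 11 knockout sham members had 24685 and 27723 CPM of antiviral genes, against 12649 and 10938 in their other neutrophils. The summed antiviral level in members was 26296 and 29509 CPM at 24 h, and 51315 and 36715 CPM at 72 h, wild type first. In these sums Ifi27l2a alone had 978 and 2337 CPM at 24 h, and 14918 and 3107 at 72 h. As a median over the antiviral genes, the log2 ratio of 72 h to 24 h in wild-type members was 0.16, against 0.13 for all measured genes.

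The interferons themselves were almost absent from these libraries. The members had 0 UMIs of the 9 ligand genes looked for, and neutrophils had 1 UMI, of Ifna2 in knockout at 24 h. Ifng, made by T and NK cells, had 4 and 3 UMIs after sham, 6 and 4 at 24 h, and 25 and 11 at 72 h over all kept cells, wild type first, and 0 in neutrophils. Cells of other kinds also carried the 4 rule genes. Among cells with Fcgr1 or Adgre1 UMIs, which mark macrophages, 1.26% and 2.48% had at least 5 such UMIs after sham, 4.97% and 3.05% at 24 h, and 17.4% (15.9 to 18.9) and 3.80% (3.02 to 4.72) at 72 h. That order at 72 h was the one seen in neutrophils. These cells had median totals of 12013 UMIs in wild type and 3197 in knockout at 72 h, and a fixed minimum favours the deeper cells. Scaled by depth, the 4 genes had 343 CPM in wild type and 212 CPM in knockout, which lie closer together than the shares. Among Cdh5 cells the shares lay between 4.09% (knockout at 72 h, median 1908 UMIs) and 10.4% (wild type at 72 h, median 4079 UMIs). By level the order of the Cdh5 cells was another, with 247 CPM in wild type at 24 h the lowest, 361 CPM in knockout sham the highest, and 326 and 254 CPM in wild type and knockout at 72 h.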

How the data were processed

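The series holds 10x single-cell RNA libraries of mouse heart cells. The authors deposited raw UMI counts for each cell and gene, made with Cell Ranger per the file headers. Version 6.0.0 and build mm10 are per the submitters' processing notes. Per the labels' protocols, ventricles were digested with thermolysin and papain, meshes removed cardiomyocytes, and live cells were sorted with Calcein-AM and DAPI. The counts were used as deposited, with no doublet removal in the main values. UMIs were summed over cells of a library and scaled to 1000000 (CPM). Shares have exact (Clopper-Pearson) 95% intervals, CPM exact Poisson intervals, ratios of CPM the exact conditional interval of 2 Poisson counts, and ratios of shares log-normal (Katz) intervals. All cover counting error only. A count of 0 was set to 3 counts in a ratio. With 1 library per group no test was run. Other neutrophils are those with 0 to 4 UMIs of the 4 rule genes. Gene lists, and a rule of size for further genes (at least 50 UMIs over the pair, at least 100 CPM and 10% of cells on the higher side), set the names. Members and lists were chosen with earlier results of these data known. The scripts were tested on simulated data. Alternatives were other minimums, exclusions, depths and doublet removal. Promoters are from RefSeq (GRCm38.p6), matched by symbol. Mx1, Mx2 and Cxcl11 were not analysed here. Tools were Python 3.11.15, NumPy 2.4.6, SciPy 1.17.1, pandas 2.3.3 and Scanpy 1.11.5 (Scrublet).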

Additional observations from a re-analysis of the deposited data

Results flagged for a closer look

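Interferon beta transcripts appeared in cells outside the neutrophils, which the comparisons did not use. In the wild-type library at 24 h after ligation, 31 UMIs of Ifnb1 lay in 1 cell with 16965 total UMIs. That cell also held 169 UMIs of the 4 rule genes, 314 of Cxcl10, 397 of Ccl5 and 142 of Dcn, a fibroblast gene. In the knockout library at 72 h, 12 UMIs of Ifnb1 lay in 2 cells, 11 of them in a cell with 3233 total UMIs that had 0 UMIs of the rule genes. Both sham libraries had 0 UMIs of Ifnb1, which allows a share of cells with a UMI of it of up to 0.0563% in wild type and 0.0515% in knockout, and sets no limit on cells expressing the gene. The library with the highest share of responding neutrophils, wild type at 72 h, also had 0 UMIs of Ifnb1, with a limit of 0.0681% of cells with a UMI.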

How the results depend on the processing

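Across 129 values under alternative settings, 125 differed from the value given by less than its error or spread, and 0 reversed a called direction. The other 4 moved further. For the antiviral medians the spread was the lower to upper quartile of the genes' own ratios, which is wide and no error of the median. For the wild-type members from 24 h to 72 h it ran from −0.14 to 0.97, so no direction was called. The change of that median from 0.16 to −0.16 therefore could not count as a reversal. The wild-type share ratio of 24 h to sham was 3.85 with a minimum of 10 UMIs of the rule genes, and its interval contained 1 under 5 alternatives (ratios 1.42 to 1.89). The wild-type share ratio of 72 h to 24 h was 4.85, and the members' antiviral median from 24 h to 72 h was −0.16, with at least 2 such UMIs per 1000. The antiviral median of wild-type members at 72 h was 3.05 against neutrophils with 0 of these UMIs. The cause was not tested, except that the last setting removes neutrophils with 1 to 4 of them by construction. The knockout to wild-type share ratio at 72 h ranged from 0.194 to 0.343 over 11 alternatives, and that at 24 h from 0.723 to 0.995. Settings with at least 500 UMIs per cell, or without single knockout members at 24 h, were chosen after seeing the data. Scrublet's own threshold marked between 0 and 44 cells per library, so the highest scores were removed at a fixed rate. No paired analysis was possible because each group has 1 library. The depth of 10 to 13 members in 3 libraries limits what can be said of them.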
